A study of Mus musculus with 24 samples.

Results

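The genes described here are 38 genes of the blood vessels and connective tissue of pancreatic islets, measured by RNA sequencing in mice that lack Cop1 in β cells. They were chosen by name as genes of these cell types: 16 endothelial genes, 7 genes of pericytes and smooth muscle (mural cells), 9 collagen genes and 6 genes of fibroblasts and matrix. A gene was kept with at least 1 RPKM (reads relative to gene length and to the library's total) in at least 4 libraries, and all 38 of 38 were kept, among 28059 genes in the table. Nearest to that limit were Cspg4, which reached 1 RPKM in 5 libraries, and Cldn5 and Myh11, which reached it in 11 each.

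Mouse islets from animals of mixed background, aged 3 to 4 months, were cultured and picked by hand before total RNA was taken. COP1 is a ubiquitin ligase that marks transcription factors for degradation, among them the ETS factors ETV1, ETV4 and ETV5, and the design asks what its loss changes in islets and what of this depends on those factors. The numbers in the titles form 2 runs, called sets here, and each deletion group was compared within its set. Set 1 held 4 libraries labelled Cop1 Etv1/4/5 deletion (Cop1fl/fl and Etv1fl/fl, with Etv4ko/ko, Etv5fl/fl and the transgene Pdx1.CreERT2), 3 Cop1 deletion libraries (Cop1 fl/fl with Pdx1.CreERT2) and 3 control libraries (Cop1 fl/fl without Cre). Set 2 held 4 libraries labelled Cop1 Etv4/5 deletion (Cop1fl/fl with Etv4ko/+, Etv5fl/fl and the same transgene), 4 Cop1 deletion libraries and 4 control libraries of the same 2 genotypes as in set 1. Every group, controls included, carries floxed Cop1, and none of the groups used here carries Cre alone. The Pdx1 promoter drives the recombinase in β cells and other cells that express Pdx1, so endothelial, mural and fibroblast cells keep Cop1, and the Etv4 ko alleles are not restricted to a cell type. Per the design text, each genotype had 5 biological replicates, but nothing ties a library to an animal or a culture. The p-values below thus measure the spread between these libraries, which may be technical in part. In every group but the set 2 controls, Xist RNA, a mark of female cells, differed between libraries. Libraries of such a group thus do not all come from the same animals.

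Islets are threaded by a dense net of capillaries whose endothelium is held open and fenestrated by VEGF-A from β cells. Pericytes wrap these capillaries, and endothelial cells, which lay down the islet basement membrane of collagen IV and laminins, signal back to β cells. Fibroblasts and fibrillar collagens surround the islet, and in picked islets their RNA can also come from attached exocrine tissue and vessels.

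Cop1 was 0.719 to 1.04 RPKM in the libraries labelled Cop1 Etv1/4/5 deletion, 0.984 to 1.13 in the Cop1 deletion libraries and 1.22 to 1.55 in the controls of set 1. It was 0.77 to 0.856, 0.763 to 0.934 and 1.43 to 1.87 RPKM in the Cop1 Etv4/5 deletion, Cop1 deletion and control libraries of set 2. Libraries of 2 kinds went against their labels. Etv4 was 0.927 to 1.53 RPKM in the libraries labelled Cop1 Etv1/4/5 deletion (Etv4ko/ko), against 0.0418 to 0.118 RPKM in the set 1 controls, and these values do not show which part of the gene was read. Esr1, whose ligand-binding part is in CreERT2, was 99.1 RPKM in the library labelled set 1 control replicate 2 and 0.169 and 0.191 in the other set 1 controls. Without that library, the number of the 38 genes called stayed at 2 for each deletion group of set 1 against control and at 3 for the difference between the sets, and values that moved are given beside their results. Etv1 and Etv5 were not lower in the libraries labelled Cop1 Etv1/4/5 deletion, at 4.89 to 5.61 and 2.57 to 4.85 RPKM, than in the Cop1 deletion libraries of set 1, at 4.23 to 5.01 and 2.31 to 3.58 RPKM. In set 2, Etv4 was 0.778 to 1.2 RPKM in the libraries labelled Cop1 Etv4/5 deletion and 0.349 to 0.661 RPKM in the controls, and Etv5 was 1.39 to 1.83 and 2.93 to 6.99 RPKM in these groups. The loss of the Etv genes is thus taken from the labels. Relative to the deepest library, set 2 libraries had a depth of 0.758 to 1 and set 1 libraries of 0.331 to 0.526, which makes low genes less precise in set 1. Read numbers are unknown.

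Of the 38 genes, Sparc, Plvap and Vim had the highest levels. Sparc, a matrix protein that binds collagen, averaged 81.9 RPKM over all libraries, Plvap, the diaphragm protein of fenestrated endothelium, 72 RPKM, and Vim, an intermediate filament of mesenchymal cells, 51.5 RPKM. Pecam1, an adhesion protein of endothelial junctions, averaged 24.4 RPKM and Cspg4, the NG2 proteoglycan of pericytes, 0.834 RPKM. The libraries differed in 2 ways that genotype does not describe, the first of which was the set. Rgs5, a pericyte regulator of G proteins, was 36.5 to 48.6 RPKM in the 10 set 1 libraries and 5.27 to 19.5 RPKM in the 12 set 2 libraries. Plvap was 87.8 to 112 RPKM in set 1 and 35.8 to 84.4 RPKM in set 2, and Myh11, the myosin of smooth muscle, 2.46 to 4.68 and 0.252 to 1.02 RPKM in these sets. Of the 11 libraries in which Myh11 reached 1 RPKM, 10 were of set 1, so that it was kept only through the set where it is high. Cdh5, the cadherin of endothelial junctions, went the other way, with 8.55 to 12.9 RPKM in set 1 and 17.3 to 41.1 RPKM in set 2, as did Egfl7, a secreted endothelial protein, with 8.45 to 12.2 and 14.8 to 39.3 RPKM. For no other gene of the 38 were the sets apart without overlap. Among all 14342 genes tested, 10.6% were higher and 19% lower in every set 1 library than in every set 2 library. What differed between the sets cannot be told apart.

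The second was single libraries of set 2. Col1a1, a fibrillar collagen chain, was 23.6, 31.9, 20.9 and 25 RPKM in the 4 Cop1 Etv4/5 deletion libraries, 1.5, 23.6, 40.4 and 17.5 RPKM in the 4 Cop1 deletion libraries and 7.98, 5.59, 31.3 and 20.4 RPKM in the 4 controls. Acta2, the actin of smooth muscle, was 1.99, 3.54, 2.3 and 2.6 RPKM, 0.136, 5.48, 4.07 and 1.65 RPKM, and 0.837, 0.754, 6.26 and 1.89 RPKM in the same groups. Cop1 deletion replicate 1 was therefore far below its fellows, while the controls fell into low and high libraries and all groups overlapped. Of the 38 genes, 35 were lowest in replicate 1 of the set 2 Cop1 deletion libraries, 23 were highest in replicate 3 and 15 in replicate 2. In the set 2 controls, 23 were highest in replicate 4, 15 of them endothelial, and 14 in replicate 3, 7 of them collagens. The Cop1 deletion libraries of set 1 were also ordered, with 33 of the 38 genes highest in replicate 2 and 32 lowest in replicate 4.

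The summed level of the 9 collagen genes shows the size of this spread. It was 51.2, 156, 244 and 121 RPKM in the set 2 Cop1 deletion libraries and 92.7, 88.9, 180 and 167 RPKM in the set 2 controls, but 155 to 176 RPKM in the Cop1 Etv4/5 deletion libraries. Within the set 2 Cop1 deletion group, the median SD of log2 values was 1.5 for collagens, 1.08 for fibroblast and matrix genes, 0.79 for mural genes and 0.52 for endothelial genes, against 0.21 for all genes tested. In the set 2 controls it was 0.75, 0.74, 0.4 and 0.39 for these lists in the same order, against 0.15 for all genes. In the Cop1 Etv4/5 deletion group it was 0.13, 0.23, 0.19 and 0.11, against 0.07 for all genes. In set 1 it was at most 0.32 for any of these lists. Markers of exocrine tissue and of immune cells also differed between these libraries. The sum of 16 acinar markers was 4740, 11400, 25700 and 11600 RPKM in the set 2 Cop1 deletion libraries and 13300, 2890, 6900 and 920 RPKM in the set 2 controls, and that of 16 immune markers (11 of them at a tested level) 128, 419, 258 and 114 RPKM and 124, 114, 141 and 68 RPKM. Acinar, immune and collagen sums were each higher in Cop1 deletion replicates 2 and 3 than in replicate 1. Among the controls, the acinar sum was highest in replicate 1 and the collagen sum in replicate 3. In the set 1 libraries labelled Cop1 Etv1/4/5 deletion, acinar sums were 6050, 3080, 17800 and 14700 RPKM. Their collagen sums were 125, 130, 121 and 128 RPKM. Xist RNA, a mark of female cells, was 0.0627 and 0.0345 RPKM in Cop1 deletion replicates 2 and 3. It was 74.2 and 48.3 RPKM in replicates 1 and 4, and 51.6 to 62.9 RPKM in the set 2 controls. In set 1, Xist RNA was 29.4 and 24.2 RPKM in replicates 3 and 4 of the libraries labelled Cop1 Etv1/4/5 deletion. There it was 10.4 RPKM in Cop1 deletion replicate 3, 32.7 RPKM in control replicate 3 and at most 0.027 RPKM in the rest. The part of exocrine cells, immune cells and sex in the spread of the 38 genes was not tested.

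**Figure D1:**
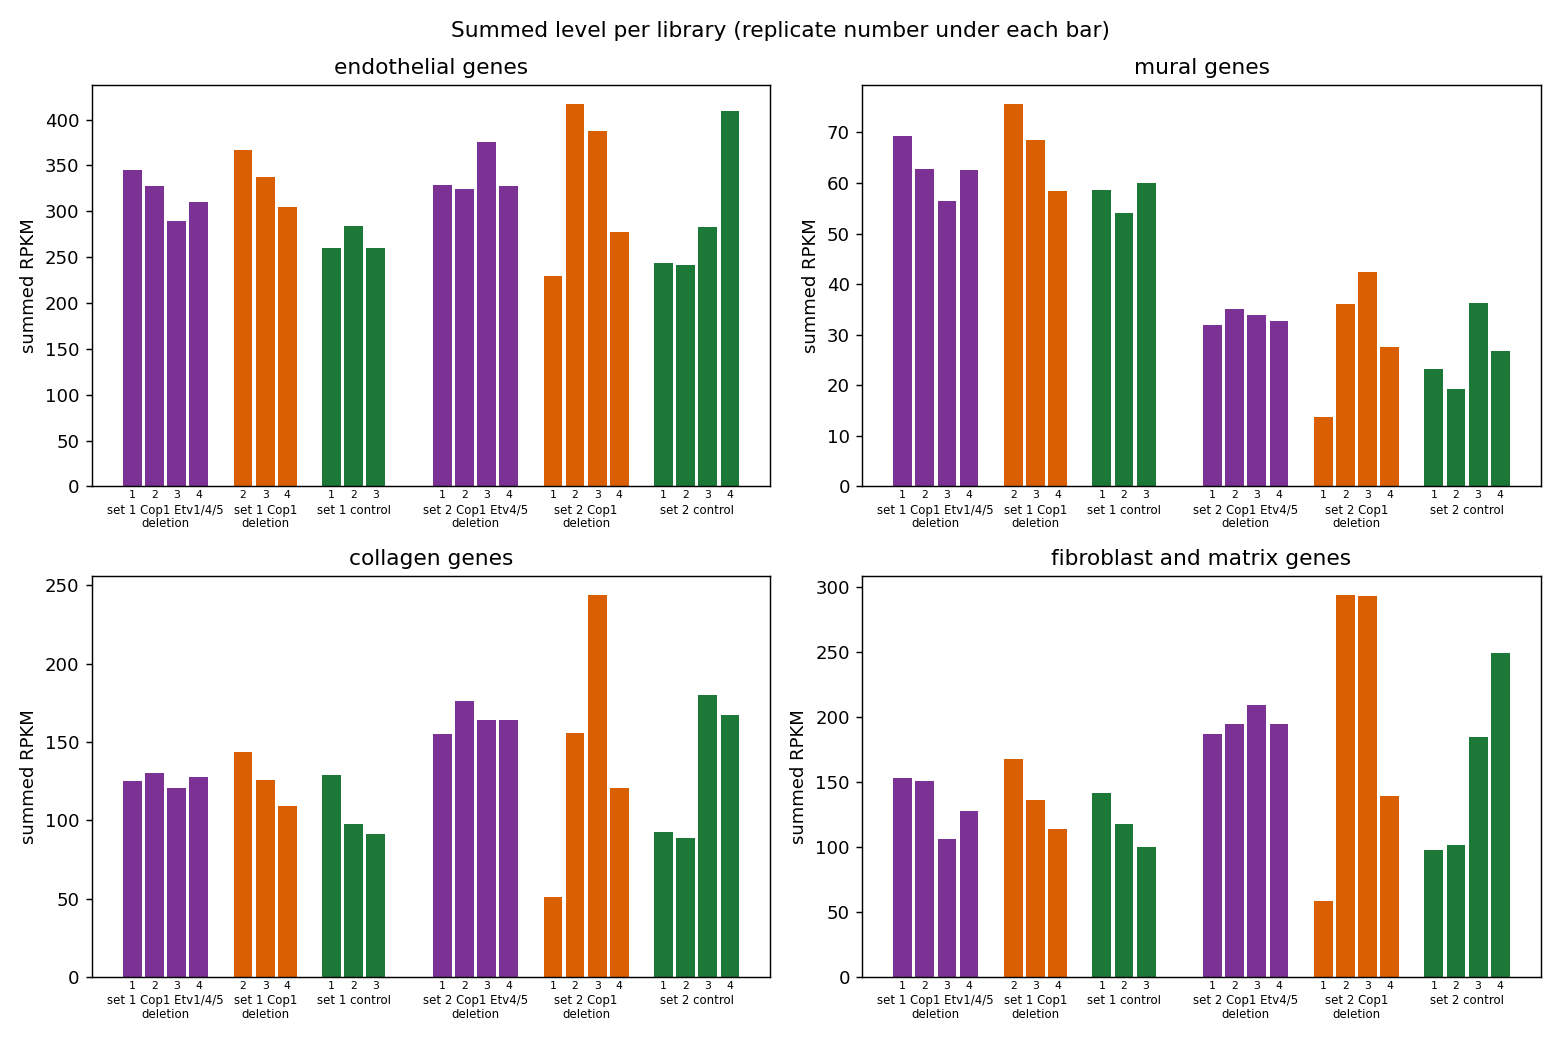
Summed RPKM of the 4 gene lists (vertical axes) in every library, by genotype and set (horizontal axis), with 1 bar per library and its replicate number beneath. Collagen sums run from 51.2 to 244 RPKM in the 4 set 2 Cop1 deletion libraries and from 155 to 176 RPKM in the 4 Cop1 Etv4/5 deletion libraries.

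**Figure D2:**
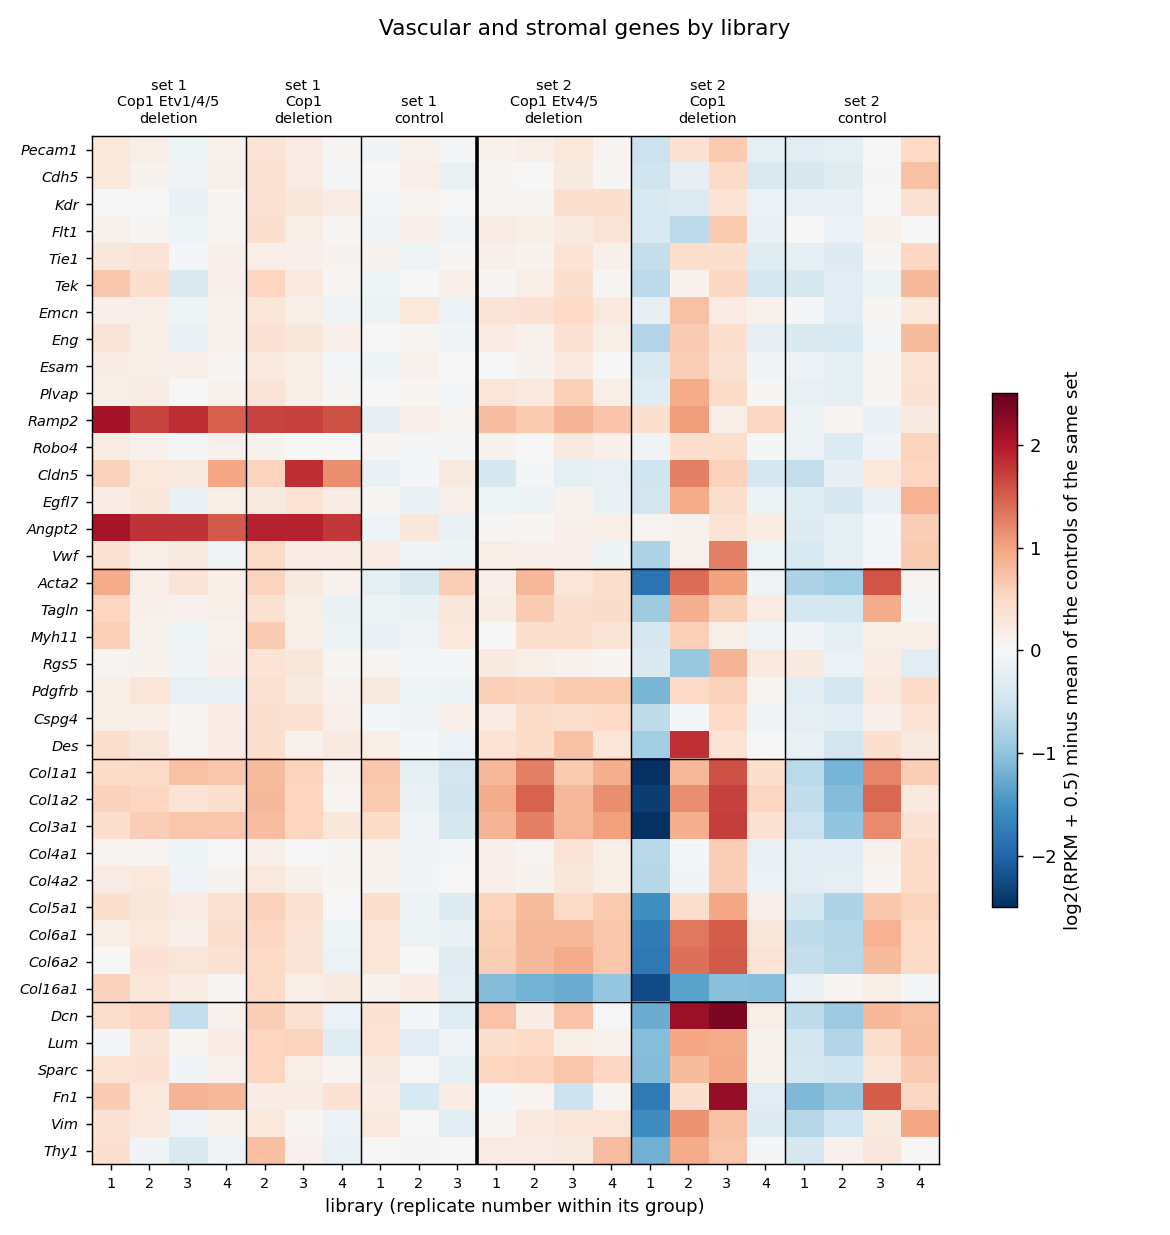
Level of each of the 38 genes (rows) in the 22 libraries (columns, grouped by set and genotype), as log2 of RPKM + 0.5 minus the mean of the control libraries of the same set. The colours end at 2.5 in either direction, so that values beyond share the end colour, and the blue column is set 2 Cop1 deletion replicate 1, the lowest of its group in 35 of the 38 genes.

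The comparison of Cop1 deletion with control asks what loss of Cop1 in β cells does to these genes. In set 1, 2 of 38 genes changed, both higher: Angpt2, a ligand of the endothelial receptor Tek that loosens the bond between endothelium and pericytes, and Ramp2, the partner that turns the receptor Calcrl into a receptor for adrenomedullin. The other 36 did not pass the test (limma, Benjamini-Hochberg adjusted p under 0.05 over all genes tested). These 2 make 5.26% of the list, against 8.33% of all genes tested, of which 4.04% were higher and 4.29% lower. The log2 fold change was above 0 for all 38 genes, with a median of 0.24 against -0.01 over all genes tested, and Cop1 deletion replicate 2 holds the highest value of 33 of them. With 1 library left out at a time, the median was 0.13 to 0.33, lowest without that replicate. In these bulk samples, a change in the number of cells of a type and a change in RNA per cell cannot be told apart. Nor do the values show in which cells the RNA of a gene rose.

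Angpt2 was 15.6, 13, 13 and 10.6 RPKM in the libraries labelled Cop1 Etv1/4/5 deletion, 14.2, 14.2 and 12.7 RPKM in the Cop1 deletion libraries and 3.06, 4.16 and 2.95 RPKM in the controls of set 1. Every deletion library lay above every control, and the deletion groups overlapped. Angpt2 averaged 13.7 ± 0.889 RPKM in the Cop1 deletion libraries and 3.39 ± 0.668 RPKM in the controls (SD, n = 3 each), which was 3.69-fold higher on the log2(RPKM + 0.5) scale (log2 fold change 1.88, SE 0.18, limma adjusted p = 2.1e-06). Without the library labelled control replicate 2, the log2 fold change was 2.02.

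Ramp2 was 39.7, 30.1, 34.0 and 26.5 RPKM in the libraries labelled Cop1 Etv1/4/5 deletion, 30.4, 30.8 and 28.1 RPKM in the Cop1 deletion libraries and 7.83, 9.98 and 9.45 RPKM in the controls of set 1. Here too the deletion libraries overlapped with each other and none came near a control. Ramp2 averaged 29.7 ± 1.47 RPKM in the Cop1 deletion libraries and 9.09 ± 1.12 RPKM in the controls (SD, n = 3 each), 3.17-fold higher (log2 fold change 1.66, SE 0.17, limma adjusted p = 3.9e-06), and without control replicate 2 the log2 fold change was 1.73. Its receptor partner Calcrl, which was named after its values were seen, was 2.89 ± 0.222 RPKM in the Cop1 deletion libraries and 2.67 ± 0.522 RPKM in the set 1 controls (log2 fold change 0.11, limma adjusted p = 0.89).

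The other 14 endothelial genes had log2 fold changes above 0 and did not pass the test. Angpt2's receptor Tek was 5.36, 4.31 and 3.64 RPKM in the Cop1 deletion libraries and 3.24, 3.54 and 3.9 RPKM in the controls of set 1, which overlapped (log2 fold change 0.27, 95% interval -0.37 to 0.92). Pecam1 had a log2 fold change of 0.19 (95% interval -0.29 to 0.66), Kdr, the main VEGF receptor, of 0.28 (-0.06 to 0.63), and Plvap of 0.17 (-0.28 to 0.61). Rises up to these upper bounds lie within the intervals. Cldn5, a claudin of endothelial tight junctions, was 0.667, 2.37 and 1.28 RPKM in the Cop1 deletion libraries and 0.207, 0.269 and 0.428 RPKM in the controls of set 1. The groups did not overlap, but the levels were low and the difference did not pass the test (log2 fold change 1.19, SE 0.39, limma adjusted p = 0.071). With a smaller pseudocount, log2(RPKM + 0.1), it did, at an adjusted p of 0.033.

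**Figure D3:**
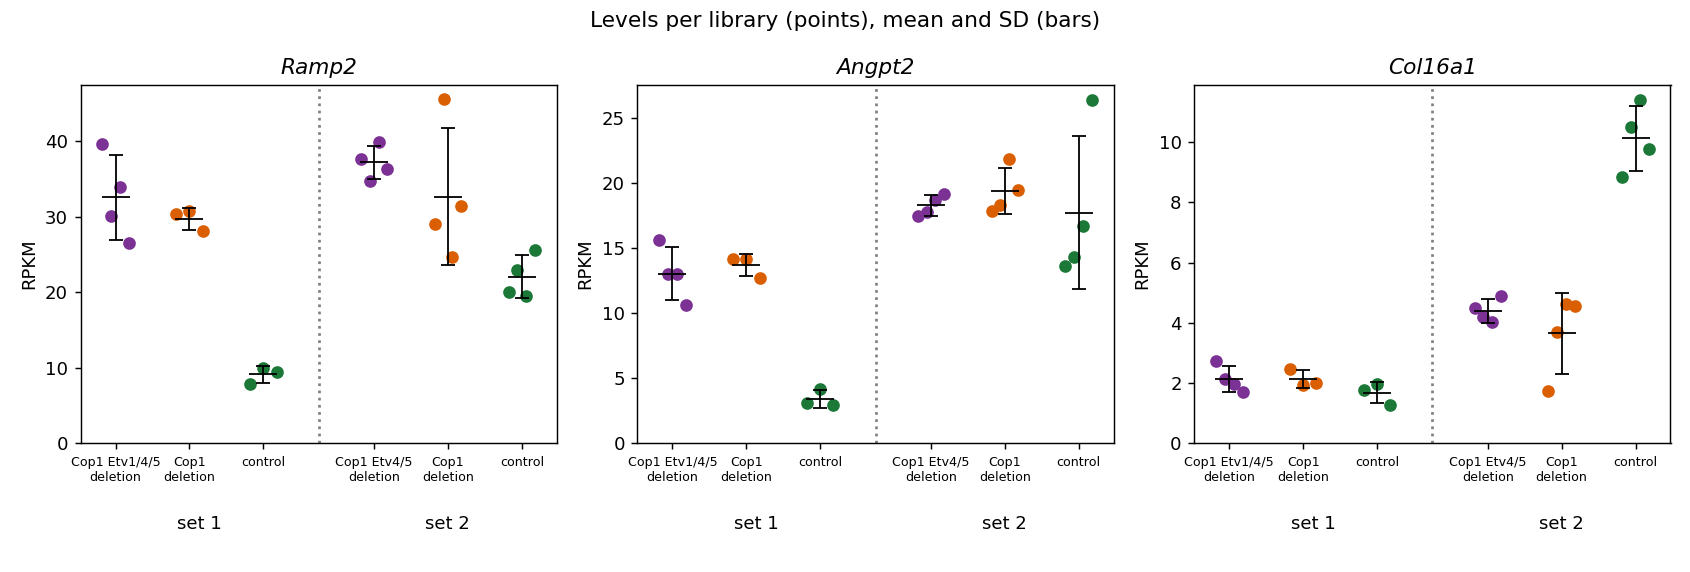
RPKM (vertical axes) of Ramp2, Angpt2 and Col16a1 in every library, by genotype and set (horizontal axes), with 1 point per library and bars at the mean and SD of the group. In set 1, Ramp2 and Angpt2 lie higher in every deletion library than in every control, and in set 2, Col16a1 is 1.74 to 4.89 RPKM in the deletion libraries and 8.83 to 11.4 RPKM in the controls.

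In all, 7 genes were higher in every Cop1 deletion library than in every control of set 1, namely Angpt2, Ramp2, Cldn5, Cspg4, Eng, Kdr and Egfl7, where 14.7% of all genes tested were higher without overlap. None was lower, against 15.3% of all genes. Without control replicate 2 these were 12 genes higher and 0 lower, where 22.6% and 23.6% of all genes were. Mural genes (0 of 7 called, median log2 fold change 0.24), collagens (0 of 9, 0.29) and fibroblast and matrix genes (0 of 6, 0.25) gave no call. Over the alternatives the collagen median ran from 0.04 to 0.42, the fibroblast and matrix median from 0.07 to 0.39 and the mural median from 0.15 to 0.36. At an unadjusted p under 0.05, Cldn5 was the only addition to Angpt2 and Ramp2. With limma's library weights, 6 genes were called higher, the additions being Kdr, Flt1, Cldn5 and Cspg4, but 37.9% of all genes were then called. Fitted on set 1 libraries alone, 4 were called, among 14.7% of all genes, with Kdr (log2 fold change 0.28, adjusted p = 0.023) and Cldn5.

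None of 5 further endothelial genes passed the test in either set. In set 1, Emcn, a sialomucin of capillaries and veins, averaged 34.9 ± 4.87 RPKM in the Cop1 deletion libraries and 32.2 ± 5.44 RPKM in the controls (log2 fold change 0.12, 95% interval -0.26 to 0.49). Esam, an adhesion molecule of endothelial junctions, averaged 14.5 ± 1.63 and 13.3 ± 1.03 RPKM in these groups, and Robo4 5.09 ± 0.184 and 4.99 ± 0.19 RPKM (SD, n = 3 each). Eng, a coreceptor for TGF-β family ligands, averaged 24.5 ± 2.16 and 20.4 ± 1.07 RPKM in these groups without overlap, with an interval of -0.34 to 0.85 on the log2 scale. In set 2 it averaged 38.9 ± 15.6 RPKM in the Cop1 deletion libraries and 37.7 ± 16.3 RPKM in the controls (n = 4 each; interval -0.48 to 0.55). Vwf, the von Willebrand factor of clotting, averaged 2.39 ± 0.348 RPKM in the Cop1 deletion libraries and 1.86 ± 0.293 RPKM in the controls of set 1, and 1.98 ± 1.57 and 1.56 ± 0.723 RPKM in these groups of set 2, where its highest Cop1 deletion library was 6.48 times its lowest.

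The stromal genes had wider intervals. Tagln, a protein that binds actin in smooth muscle, averaged 5.49 ± 1.12 RPKM in the Cop1 deletion libraries and 4.97 ± 1.01 RPKM in the controls of set 1, and Des, the intermediate filament of muscle and pericytes, 3.07 ± 0.36 and 2.51 ± 0.345 RPKM (SD, n = 3 each). The fibrillar chain Col1a2 averaged 15.7 ± 4.17 RPKM in the Cop1 deletion libraries and 11.6 ± 5.26 RPKM in the controls of set 1, with a log2 interval of -1.05 to 1.99, and Col5a1, a chain found within collagen I fibrils, 1.5 ± 0.387 and 1.11 ± 0.452 RPKM. Col4a2, which pairs with Col4a1 in basement membranes, was more even, at 22.2 ± 1.68 and 19.9 ± 1.14 RPKM (interval -0.32 to 0.62). Lum, a proteoglycan of collagen fibrils, averaged 4.95 ± 1.64 RPKM in the Cop1 deletion libraries and 3.96 ± 1 RPKM in the controls, and Thy1, a surface protein of fibroblasts and neurons, 6.49 ± 2.43 and 5.25 ± 0.0722 RPKM.

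In set 2, 2 of 38 genes changed after Cop1 deletion, 5.26% of the list against 18.8% of all genes tested, of which 9.09% were higher and 9.75% lower. Ramp2 was higher and Col16a1, a collagen that joins other fibrils and is made by several cell types, was lower. The median log2 fold change over the 38 genes was 0.12, against -0.02 over all genes tested, with 25 genes above 0. Its sign depends on single libraries: it was -0.14 without Cop1 deletion replicate 3 and 0.42 without Cop1 deletion replicate 1. Over the alternatives, the endothelial median ran from -0.28 to 0.30, the mural from -0.37 to 0.37, the collagen from -0.74 to 0.94 and the fibroblast and matrix median from -0.58 to 0.64.

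Col16a1 was 4.48, 4.18, 4.01 and 4.89 RPKM in the libraries labelled Cop1 Etv4/5 deletion, 1.74, 3.68, 4.62 and 4.54 RPKM in the Cop1 deletion libraries and 8.83, 10.5, 11.4 and 9.77 RPKM in the controls of set 2. All 8 deletion libraries were below all 4 controls, and the deletion groups overlapped. No other gene of the 38 was lower in this way. It averaged 3.64 ± 1.34 RPKM in the Cop1 deletion libraries and 10.1 ± 1.1 RPKM in the controls (SD, n = 4 each), a fold of 0.372 (log2 fold change -1.43, SE 0.20, limma adjusted p = 5.9e-05). In set 1 it was 2.47, 1.91 and 1.99 RPKM in the Cop1 deletion libraries and 1.77, 1.95 and 1.27 RPKM in the controls, which overlapped (log2 fold change 0.29, 95% interval -0.19 to 0.76). Among all genes tested, 8.43% were lower in every Cop1 deletion library than in every control of set 2, and 7.63% were higher, which 0 of the 38 genes were. The other 8 collagens did not pass the test in set 2. Col3a1, a fibrillar chain, had a log2 fold change of 0.12 with a 95% interval of -1.15 to 1.39, while its highest Cop1 deletion library was 25.9 times its lowest.

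Ramp2 was 37.7, 34.8, 39.9 and 36.4 RPKM in the libraries labelled Cop1 Etv4/5 deletion, 29.1, 45.6, 24.6 and 31.4 RPKM in the Cop1 deletion libraries and 20, 23, 19.5 and 25.6 RPKM in the controls of set 2. The Cop1 Etv4/5 deletion libraries were all above the controls, while Cop1 deletion replicate 3 was below control replicate 4. Ramp2 averaged 32.7 ± 9.07 RPKM in the Cop1 deletion libraries and 22 ± 2.81 RPKM in the controls (SD, n = 4 each), 1.44-fold higher (log2 fold change 0.53, SE 0.15, limma adjusted p = 0.017). This call is not firm. Without Cop1 deletion replicate 2, without control replicate 1 or without control replicate 3 the adjusted p was 0.052, 0.051 and 0.052, and it was 0.051 to 0.079 under 3 other settings. One of these used only libraries with Xist RNA, which all 4 set 2 controls had at 51.6 to 62.9 RPKM but 2 of 4 libraries in each deletion group, so sex was not balanced over this set.

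Angpt2 was 17.5, 17.8, 18.7 and 19.2 RPKM in the libraries labelled Cop1 Etv4/5 deletion, 17.9, 18.3, 21.9 and 19.5 RPKM in the Cop1 deletion libraries and 13.6, 14.3, 16.7 and 26.4 RPKM in the controls of set 2. Control replicate 4 was above every deletion library, and the other 3 controls were below all of them. The difference between Cop1 deletion and control was not called (log2 fold change 0.17, 95% interval -0.16 to 0.50, limma adjusted p = 0.47). Without control replicate 4, which also had the highest value of 23 of the 38 genes in its group, it was called, with a log2 fold change of 0.37 and an adjusted p of 0.027, as was Robo4, an endothelial guidance receptor, at 0.38 and 0.024. That made 4 calls in all, among 23.6% of all genes. With library weights Angpt2 was called too, with a log2 fold change of 0.38 and an adjusted p of 0.0039. In set 1 these weights also raised the share of all genes called after Cop1 deletion.

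The count in set 2 also turned on Cop1 deletion replicate 1. Without it, 6 genes were called, among 23.8% of all genes, with Plvap (log2 fold change 0.47, adjusted p = 0.044), the collagen VI chains Col6a1 (1.04, 0.03) and Col6a2 (1.08, 0.022) and Dcn, a proteoglycan that binds collagen (1.55, 0.027), all higher, besides Ramp2 and Col16a1. Without Cop1 deletion replicate 3, Flt1 was called lower (log2 fold change -0.40, adjusted p = 0.012; 18.6% of all genes called), and its difference between the sets was called as well (0.60, adjusted p = 0.038). Dcn was 1.73, 22.5, 26.4 and 5.4 RPKM in the 4 Cop1 deletion libraries and 2.87, 2.3, 8.73 and 8.24 RPKM in the 4 controls of set 2. It was high in replicates 2 and 3, which had immune sums of 419 and 258 RPKM and Xist RNA at 0.0627 and 0.0345 RPKM. Replicates 1 and 4 had Xist RNA at 74.2 and 48.3 RPKM. The part of immune cells and of sex in this was not tested. With replicates 2 and 3 left out instead, Ramp2 and Col16a1 were called and no other.

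The effect of Cop1 deletion on these genes differed between the sets in 3 of 38 cases, 7.89% of the list against 2.83% of all genes tested. All 3 had a higher log2 fold change in set 1 (0.997% of all genes, with 1.83% lower). The difference, set 1 minus set 2, was 1.13 for Ramp2 (SE 0.22, limma adjusted p = 0.0086), 1.71 for Angpt2 (SE 0.24, adjusted p = 0.00065) and 1.71 for Col16a1 (SE 0.30, adjusted p = 0.0038). Set side by side, Ramp2 averaged 29.7 ± 1.47 RPKM in the set 1 and 32.7 ± 9.07 RPKM in the set 2 Cop1 deletion libraries, while its controls averaged 9.09 ± 1.12 RPKM in set 1 and 22 ± 2.81 RPKM in set 2. Angpt2 averaged 13.7 ± 0.889 RPKM in the set 1 and 19.4 ± 1.78 RPKM in the set 2 Cop1 deletion libraries, with controls at 3.39 ± 0.668 and 17.7 ± 5.92 RPKM in these sets. The controls of the sets thus lay farther apart than their Cop1 deletion libraries did. Averaged over both sets, 3 genes were called, 7.89% of the list against 20.1% of all genes tested (9.57% higher and 10.5% lower). Ramp2 had a mean log2 fold change of 1.10 (SE 0.11, adjusted p = 1.3e-06), Angpt2 of 1.03 (SE 0.12, adjusted p = 5.9e-06) and Col16a1 of -0.57 (SE 0.15, adjusted p = 0.011). Of these, Ramp2 was called in each set, Angpt2 in set 1 and Col16a1 in set 2.

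**Figure D4:**
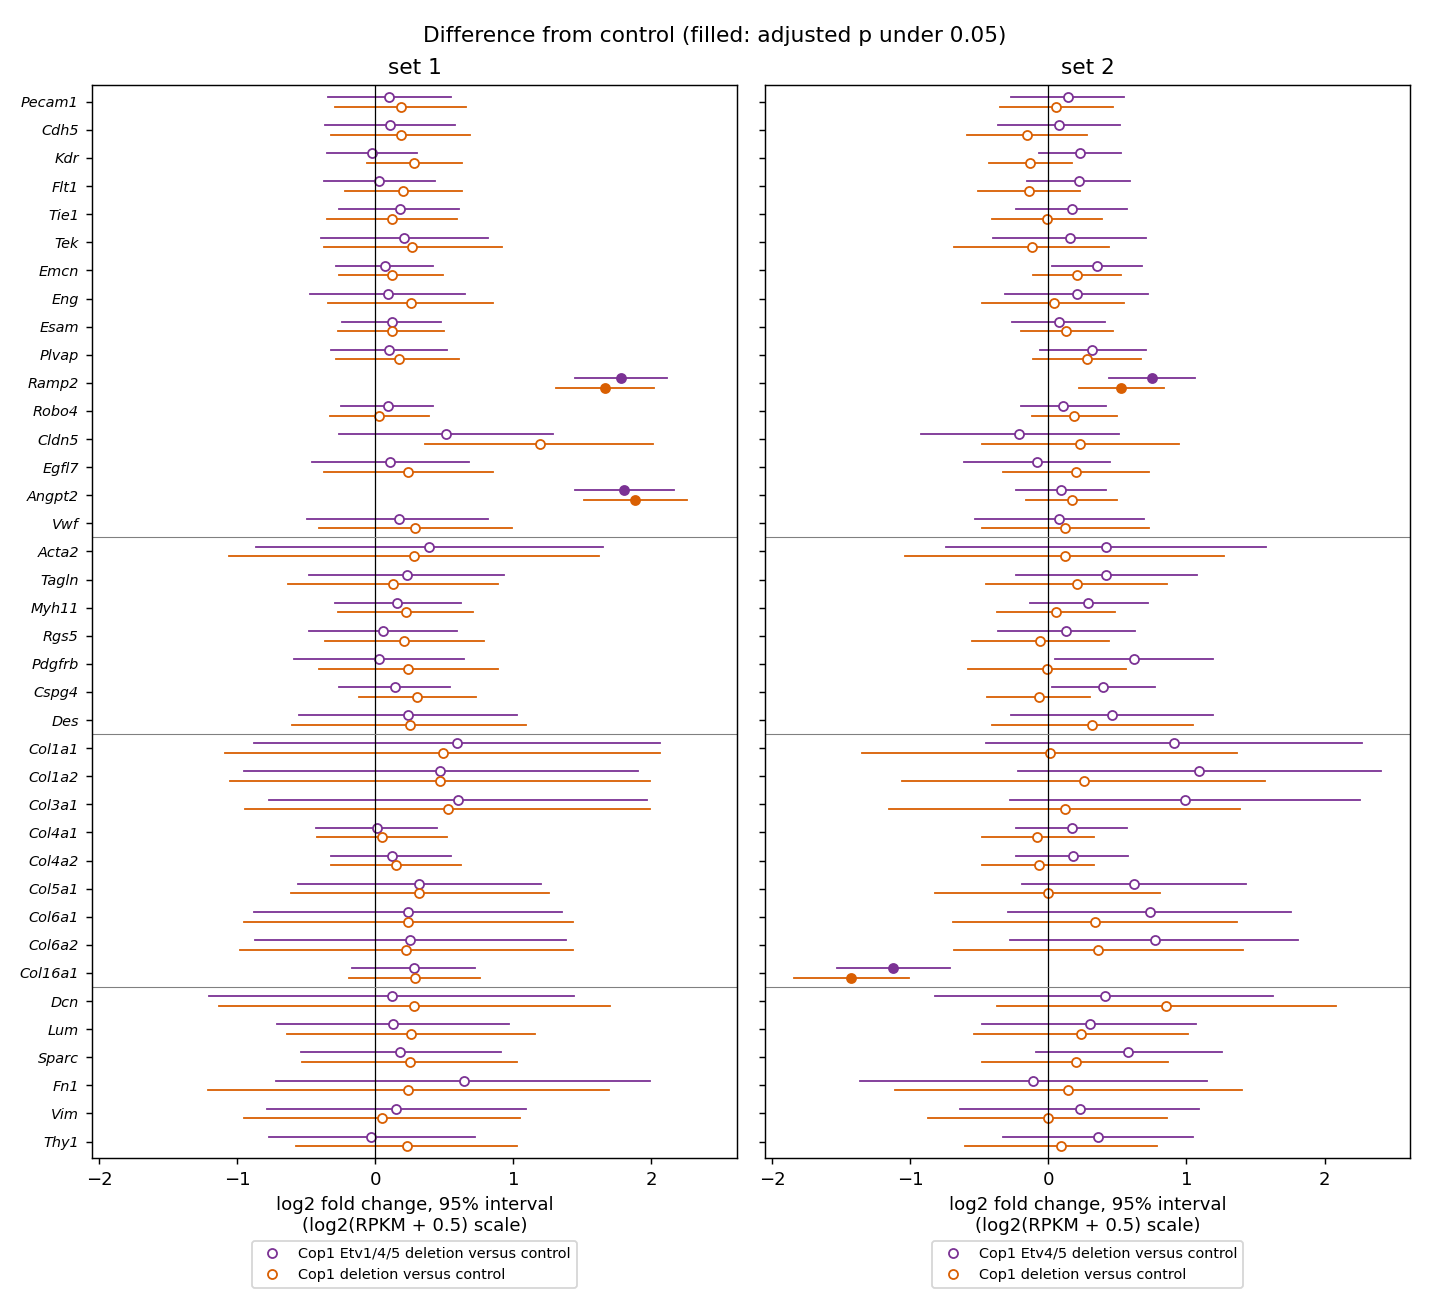
Log2 fold change with its 95% interval (horizontal axes, log2(RPKM + 0.5) scale) of the 38 genes (rows) for each deletion group against the controls of its set, with filled points where the adjusted p is under 0.05. Ramp2 and Angpt2 stand apart in set 1 at 1.66 to 1.88, and Ramp2 and Col16a1 are the filled points of set 2.

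The libraries with added Etv alleles ask whether these differences depend on ETV factors. The comparisons with control below share their control libraries with the Cop1 deletion comparison of the same set, so their values stand side by side and are not independent. In set 1, the libraries labelled Cop1 Etv1/4/5 deletion had the same 2 genes called higher than control, 5.26% of the list against 1.32% of all genes tested (0.899% higher). Angpt2 averaged 13.1 ± 2.06 RPKM (SD, n = 4) and 3.39 ± 0.668 RPKM in the controls (n = 3), with a log2 fold change of 1.80 (SE 0.17, adjusted p = 2.2e-06). Ramp2 averaged 32.6 ± 5.67 RPKM (SD, n = 4) and 9.09 ± 1.12 RPKM in the controls (n = 3), with a log2 fold change of 1.78 (SE 0.16, adjusted p = 1.4e-06). Above control without overlap were 4 genes, these 2, Cldn5 and Fn1, the matrix protein fibronectin, where 6.52% of all genes tested were. None was below, against 7.54% of all genes.

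Against Cop1 deletion alone, 0 of 38 genes were called in the libraries labelled Cop1 Etv1/4/5 deletion, where 6.34% of all genes tested were (limma; 3.65% higher and 2.69% lower), and 0 had an unadjusted p under 0.05. Ramp2 differed by a log2 fold change of 0.11 (95% interval -0.22 to 0.45) and Angpt2 by -0.08 (adjusted p = 0.89), and both were called above control in each of these genotypes. Kdr was 24.8, 24.4, 21.9 and 25.5 RPKM in the libraries labelled Cop1 Etv1/4/5 deletion and 32.2, 29.9 and 27.9 RPKM in the Cop1 deletion libraries. It was lower without overlap, as were 14.1% of all genes (16.6% were higher without overlap, and 0 of the 38), but the log2 fold change of -0.31 was not called (95% interval -0.63 to 0.01, adjusted p = 0.29). Fitted on set 1 alone it was called, at an adjusted p of 0.014, and with library weights Kdr and Cldn5 were. Both settings also raised the share of all genes called after Cop1 deletion in this set.

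In set 2, the libraries labelled Cop1 Etv4/5 deletion differed from control in 2 of 38 genes, 5.26% of the list against 8.74% of all genes tested (4.99% higher and 3.75% lower). Ramp2 averaged 37.2 ± 2.16 RPKM and 22 ± 2.81 RPKM in the controls (SD, n = 4 each; log2 fold change 0.75, SE 0.15, adjusted p = 0.0026). Col16a1 averaged 4.39 ± 0.388 RPKM and 10.1 ± 1.1 RPKM in the controls (log2 fold change -1.12, SE 0.20, adjusted p = 0.001). Angpt2 was not called (log2 fold change 0.09, adjusted p = 0.80). The median log2 fold change over the 38 genes was 0.26, against -0.01 over all genes tested, with 34 above 0. Leaving out 1 library at a time, it was 0.12 without control replicate 2 to 0.42 without control replicate 4. The median was 0.74 for the collagens and 0.42 for the mural genes. In the libraries labelled Cop1 Etv4/5 deletion collagen sums were 155 to 176 RPKM, overlapping with the controls at 92.7, 88.9, 180 and 167 RPKM. Pdgfrb, the receptor that recruits pericytes, was 9.85, 9.82, 10.3 and 10.4 RPKM in those libraries and 5.23, 4.55, 7.64 and 9.09 RPKM in the controls. It lay above control without overlap, like Ramp2 and Flt1 (a VEGF receptor) and 11% of all genes, with a log2 fold change of 0.62 that was not called (adjusted p = 0.18). With library weights 26 of the 38 genes were called in this comparison, 25 of them higher, and 33.2% of all genes.

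Against Cop1 deletion alone, 0 of 38 genes were called in the libraries labelled Cop1 Etv4/5 deletion (limma), where 1.73% of all genes tested were (0.676% higher and 1.05% lower), and 3 had an unadjusted p under 0.05, namely Kdr, Pdgfrb and Cspg4. Pdgfrb was above every Cop1 deletion library, as were 7.22% of all genes (6.59% were below, and 0 of the 38), with a log2 fold change of 0.63 (95% interval 0.06 to 1.19). Ramp2 differed by 0.22 (-0.09 to 0.53) and Col16a1 by 0.31 (-0.10 to 0.72). Without Cop1 deletion replicate 3, which had the highest collagen sum, Kdr (log2 fold change 0.52, adjusted p = 0.044), Flt1 (0.62, 0.016) and Cspg4 (0.66, 0.044) were called higher, among 1.62% of all genes. Of the 5 libraries in which Cspg4 reached 1 RPKM, 3 were libraries labelled Cop1 Etv4/5 deletion, so that it was tested only through the group where it is high. With library weights 18 were, and 22.4% of all genes.

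Genes of the same cell types outside the 38 gave few calls. Of 20 further endothelial markers tested of 21 listed, 0 were called in either set after Cop1 deletion (limma), and of 11 further fibroblast markers of 14 listed, 0 were, where 8.33% of all genes were in set 1 and 18.8% in set 2. Lyve1, a marker of lymphatic endothelium and of some macrophages, was lower in the libraries labelled Cop1 Etv1/4/5 deletion, at 2.95 ± 1.11 RPKM (SD, n = 4), than in the Cop1 deletion libraries, at 6.39 ± 2.18 RPKM (n = 3; log2 fold change -0.99, adjusted p = 0.039). Of 11 further mural markers of 14 listed, Anpep, an aminopeptidase that also marks epithelial and myeloid cells, was higher in set 1 with 71.3 ± 8.22 RPKM after Cop1 deletion and 16.9 ± 1.41 RPKM in controls (SD, n = 3 each; log2 fold change 2.04, adjusted p = 2.6e-06), and in set 2 (0.66, adjusted p = 0.012). It was lower in the libraries labelled Cop1 Etv1/4/5 deletion, at 31.3 ± 4.74 RPKM (n = 4), than after Cop1 deletion alone (log2 fold change -1.18, adjusted p = 0.00053). In set 2 it averaged 21 ± 2.71 RPKM in the libraries labelled Cop1 Etv4/5 deletion and 22.2 ± 3.75 RPKM in the Cop1 deletion libraries (n = 4 each), with no call between them, and both were called above control. Rgs4, the other called mural marker, was lower in set 1, by a log2 fold change of -0.89 (adjusted p = 0.033), but did not pass the test when control replicate 2 was omitted (-0.60, adjusted p = 0.16). Neurons and endocrine cells also express it.

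Among 32 growth factors and receptors of vessels tested of 36 listed, 0 were called higher after Cop1 deletion in either set, 1 was lower in set 1 and 2 in set 2, or 3.12% and 6.25% of the list, where 4.29% and 9.75% of all genes were lower. Vegfa, the main angiogenic factor of β cells, was lower in set 2, with 94.4 ± 13.9 RPKM after Cop1 deletion and 124 ± 10.2 RPKM in controls (SD, n = 4 each; log2 fold change -0.40, adjusted p = 0.0066), and had 95 ± 5.99 and 118 ± 7.89 RPKM in these groups of set 1 (n = 3 each; -0.31, adjusted p = 0.09). Vegfa was also called lower than control in the libraries labelled Cop1 Etv4/5 deletion (log2 fold change -0.49, limma adjusted p = 0.0026). Against Cop1 deletion it differed by -0.09, without a call. Of 12 β-cell genes, 3 were called lower and 2 higher than control in these libraries (3.75% and 4.99% of all genes). All 12 had log2 fold changes above 0 against Cop1 deletion. After Cop1 deletion, 8 of 12 were called lower in each set and 1 higher in set 2. Mafa, which activates the insulin genes, was lower by a log2 fold change of -1.95 in set 1 and -3.65 in set 2. Slc2a2, the glucose transporter GLUT2, was lower by -2 and -3.37. The part of the β-cell genes in the lower Vegfa was not tested. Pdgfa, a ligand of PDGF receptors, was lower in set 1 (-0.52, adjusted p = 0.0027) and Notch1 in set 2 (-0.59, adjusted p = 0.00053). Kdr and Flt1, the receptors of Vegfa, did not pass the test in either set in the main fit of all libraries. With library weights, both were called higher in set 1. Adm, which encodes adrenomedullin, was 1.17 ± 0.362 RPKM in the libraries labelled Cop1 Etv4/5 deletion, 4.33 ± 2.4 RPKM in the Cop1 deletion libraries and 3.47 ± 2.38 RPKM in the set 2 controls. It was called lower in the libraries labelled Cop1 Etv4/5 deletion than in the controls (log2 fold change -1.10, adjusted p = 0.033) and than in the Cop1 deletion libraries (-1.43, adjusted p = 0.025).

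Of 38 basement membrane and matrix genes tested of 39 listed, 0 were called in set 1 after Cop1 deletion, and in set 2 5 were higher and 1 lower, or 15.8% of the list, where 18.8% of all genes were called. Lama3, a laminin chain of epithelial basement membranes, was 8.5 ± 3.46 RPKM in the libraries labelled Cop1 Etv4/5 deletion, 4.87 ± 1.86 RPKM in the Cop1 deletion libraries and 0.889 ± 0.813 RPKM in the set 2 controls (SD, n = 4 each). Its log2 fold change after Cop1 deletion was 2.01 (adjusted p = 2e-04). The sum of duct epithelium markers was 1460 to 3040 RPKM in the libraries labelled Cop1 Etv4/5 deletion, where Lama3 averaged highest. It was 3130 to 4880 RPKM in the Cop1 deletion libraries and 1480 to 1920 RPKM in the controls. All 10 duct markers tested had log2 fold changes below 0 in the libraries labelled Cop1 Etv4/5 deletion against Cop1 deletion. After Cop1 deletion, 5 of 10 were called higher than control, where 9.09% of all genes were, Krt7 by a log2 fold change of 1.32. Their part in the level of Lama3 was not tested. Itgb1, the integrin chain that binds laminin and collagen, was higher by 0.44 (adjusted p = 0.0028). The main collagens of the endothelial basement membrane were not called after Cop1 deletion in either set. Col4a1 had a log2 fold change of -0.08 (95% interval -0.48 to 0.33) in set 2 and of 0.05 (-0.42 to 0.52) in set 1. Changes up to these bounds lie within the intervals.

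Because ETV factors bind DNA at a GGAA core, promoters of the 38 genes were read for short motifs on both strands, as a description with no test. The sequences are RefSeq's on GRCm38.p6, whereas the reads were processed on mm9, and the table held the 250 bases before the start of 23 of the 38 genes, in 26 windows. Ramp2 and Angpt2 are not among them. CAGGAA was in 42.3% of the 26 windows, 11 in number, and in 25.7% of all 32851 windows of this length. It was in 5 of 9 endothelial genes with a window, 3 of 4 mural genes, 1 of 8 collagens and 1 of 2 fibroblast and matrix genes. CCGGAA was in 7.69% and 12% of these windows, the GATA motif AGATAA in 3.85% and 9.99%, and TATAAA in 11.5% and 12.4%. The pair motif of FOX and ETS factors was in 3.85% (1 window, of Col6a1) and 0.0578%, and the CArG box in 0 and 1.47%. The window of Col16a1, whose level changed in set 2, holds none of these motifs, but it does hold the GGAA core, as ggaa and as ttcc. It is shown with the windows of Tek, the receptor of Angpt2, and of its relative Tie1, which hold matches. Each runs 5′ to 3′ along its gene and ends just before the start, and capitals mark CAGGAA on the opposite strand, which reads TTCCTG here. Tek lies at chr4:94739039-94739288 on the plus strand, Tie1 at chr4:118489850-118490099 on the minus strand and Col16a1 at chr4:130047590-130047839 on the plus strand.
Tek: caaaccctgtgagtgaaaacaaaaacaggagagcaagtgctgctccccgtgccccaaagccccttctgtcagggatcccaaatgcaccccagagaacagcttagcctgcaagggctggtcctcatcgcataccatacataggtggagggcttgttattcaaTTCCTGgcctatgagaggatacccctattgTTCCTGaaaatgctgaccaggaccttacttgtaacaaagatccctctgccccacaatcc
Tie1: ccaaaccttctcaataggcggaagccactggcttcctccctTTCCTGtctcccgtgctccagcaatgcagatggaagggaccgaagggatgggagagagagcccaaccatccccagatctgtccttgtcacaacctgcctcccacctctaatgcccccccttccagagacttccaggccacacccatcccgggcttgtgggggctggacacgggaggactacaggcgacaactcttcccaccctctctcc
Col16a1: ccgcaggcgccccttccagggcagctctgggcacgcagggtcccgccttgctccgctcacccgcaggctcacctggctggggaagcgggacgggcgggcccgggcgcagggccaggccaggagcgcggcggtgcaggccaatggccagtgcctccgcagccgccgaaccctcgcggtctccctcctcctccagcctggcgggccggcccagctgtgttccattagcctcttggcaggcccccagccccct
The matches of Tek lie 89 to 84 and 59 to 54 bases before its start and that of Tie1 209 to 204. A match of these letters does not show that a factor binds there. Neither Tek (log2 fold change 0.27, adjusted p = 0.72) nor Tie1 (0.12, adjusted p = 0.85) passed the test after Cop1 deletion in set 1.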

How the data were processed

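Libraries of total RNA from mouse islets were made with Illumina protocols, as the labels state. The authors deposited RPKM per gene for 24 libraries, and the submitters' processing notes name mouse build mm9. Which aligner, annotation and counting tool they used is not given in the sources used here, nor is strand use, so overlapping and antisense genes cannot be told apart. A library was placed by the number in its title, which left 2 columns without a sample and 22 in use. The labels carry no replicate numbers, and those printed follow sample order and pair nothing. Symbols came from NCBI Gene numbers in the GRCm38.p6 annotation (24998 of 28059 rows matched). Of the symbols listed for this work, 1 was not matched.

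Tests covered the 14342 genes that reached 1 RPKM in 4 or more libraries. limma 3.58.1 in R 4.3.3, with data.table version 1.17.8, fitted log2(RPKM + 0.5) with a mean-variance trend, robust variances and 1 mean for each of 6 groups. Fold changes of genes near or below 0.5 RPKM are understated on this scale. The 8 comparisons were 2-sided contrasts within a set, or the mean or difference of such contrasts, and called means a Benjamini-Hochberg adjusted p under 0.05. No count model was used, because the deposited RPKM values depend on gene length. Relative depth came from the steps between values below 0.3 RPKM, of which 87.6% to 90.8% in a library lay within 0.01 of a whole multiple. The fit was tested on simulated data.

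The 38 genes and the other lists were chosen with earlier results of these data known. Any of the 38 could be named, and from each other list up to 3 called genes with the smallest adjusted p in a comparison, or the 2 with the highest mean where none was called. Alternatives covered pseudocount, filter, scaling, fit, library weights, the libraries in the fit and leaving out each library. Chosen after seeing the data were the fit without set 2 Cop1 deletion replicates 2 and 3, the other lists and the overlap counts without set 1 control replicate 2, and the median of the 38 genes without each library. Figures were drawn with matplotlib 3.10.9 and promoters read in Python 3.11.15.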

Additional observations from a re-analysis of the deposited data

Results flagged for a closer look

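Among 152 pairs of a gene and a group of 4 libraries, 8 had a highest or lowest library whose gap to its neighbour, divided by the range of the group, was above Dixon's value of 0.829, where chance alone gives about 1 in 20, or 7.6. In the libraries labelled Cop1 Etv1/4/5 deletion of set 1, replicate 1 was highest in the smooth muscle genes Acta2 (8.96 RPKM, next 5.68) and Tagln (7.33, next 5.5). In the libraries labelled Cop1 Etv4/5 deletion of set 2, replicate 3 was highest in the endothelial genes Cdh5 (28.9 RPKM, next 25.4) and Tie1 (7.66, next 6.57), and replicate 4 was lowest in Vwf, the von Willebrand factor (1.32 RPKM, next 1.66), and highest in Thy1, a surface protein of fibroblasts and neurons (5.71 RPKM, next 3.74). In the set 2 controls, replicate 4 was highest in Tek (4.47 RPKM, next 2.07) and Egfl7 (37.8 RPKM, next 18.2).

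The effect of Cop1 deletion differed between the sets in 3 genes by the test of the difference itself. Set 1 minus set 2, on the log2 scale, it was 1.13 for Ramp2, 1.71 for Angpt2 and 1.71 for Col16a1. The 2 sets share no library, and what differs between them cannot be told apart.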

How the results depend on the processing

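The calls of Ramp2 and Angpt2 in set 1 and of Col16a1 in set 2 held under each of the 33 or 34 alternatives run for them. The call of Ramp2 in set 2 after Cop1 deletion was lost in 6 of 34, with adjusted p from 0.00017 to 0.079 over them. No result changed direction while called. With library weights the counts of called genes were 6 after Cop1 deletion in set 1, 3 in set 2, 5 for the mean of the sets, 5 for their difference, 2 for Cop1 Etv1/4/5 deletion against Cop1 deletion, 26 for Cop1 Etv4/5 deletion against control and 18 against Cop1 deletion. Fitted on the libraries of 1 set, they were 4 after Cop1 deletion in set 1, 1 in set 2 and 1 for Cop1 Etv1/4/5 deletion against Cop1 deletion. The count after Cop1 deletion in set 2 was 1 in libraries with Xist alone and 1 when each library was scaled to the same total without Ins1 and Ins2. Without set 2 Cop1 deletion replicates 2 and 3, chosen after seeing the data, Cop1 Etv4/5 deletion against Cop1 deletion gave 1. The cause was not tested. Leaving out 1 library, the counts were 2 to 3 after Cop1 deletion in set 1, 1 to 6 in set 2, 3 to 4 for their mean and 3 to 4 for their difference. They were 2 to 2 for Cop1 Etv1/4/5 deletion against control, 0 to 0 against Cop1 deletion, 2 to 3 for Cop1 Etv4/5 deletion against control and 0 to 3 against Cop1 deletion. Of 9636 alternative values of results not called, 79 were called. Scaling without the insulin genes shifted the median of all genes by -0.16 after Cop1 deletion in set 2. No paired analysis was possible because the labels give no replicate numbers; those used here follow the order of the samples. Depth is unknown in reads, and differences of low genes such as Cldn5 and Cspg4 may not have been detectable in set 1.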
